A study of Homo sapiens with 12 samples.

Results

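A set of 9 genes of the class I antigen-loading pathway was followed by their gene symbols in the table of the 60099 genes measured, and all 9 were found there. They are *TAP1* and *TAP2*, the subunits of the peptide transporter, *TAPBP* and *TAPBPL*, the loading chaperone tapasin and its relative TAPBPR, *ERAP1* and *ERAP2*, the trimming aminopeptidases of the endoplasmic reticulum (ER), *CALR* and *PDIA3*, the folding partners calreticulin and ERp57, and *NLRC5*, the transactivator of class I genes. RNA came from Cal27 and HN30, established lines of head and neck squamous cell carcinoma (HNSCC), kept for 24 h without interferon-α (IFNα) or with 20 or 200 ng/ml of it. The 12 samples carry letters, A and D for the controls, B and E for 20 ng/ml and C and F for 200 ng/ml, with 2 replicates per letter. Which letters are Cal27 and which are HN30 is not labelled, and the samples are described as line set A-C and line set D-F, with no genotype or line-specific treatment stated in the labels. Nothing states that the replicates came from separate cultures, and the p-values therefore measure only the spread between these samples, which may be technical.

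Class I molecules carry peptides from the cytosol to the cell surface, where CD8 T cells inspect them. TAP1 and TAP2 together form the pump that moves peptides into the ER, ERAP1 and ERAP2 shorten them there, and tapasin, calreticulin and ERp57 hold the heavy chain in the loading complex next to the pump while TAPBPR edits the peptide away from it. Type I interferon induces genes whose promoters hold the interferon-stimulated response element (ISRE), and NLRC5 is an interferon-inducible cofactor at the promoters of class I genes.

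The 12 libraries held 10517448 to 16056734 estimated counts each, with the 200 ng/ml libraries at 10517448 to 11854183 and the controls at 12670755 to 16056734. All 6 interferon-stimulated genes used as a treatment check rose at least 2-fold at both doses. All 6 were also lower in untreated D than in A, with a median log2 difference of −1.78, and all 6 rose more in D-F than in A-C. That interaction passed for each of them at both doses, and its median was 1.73 for the higher dose and 1.76 for the lower. It is computed from the same control samples as the untreated difference, which is therefore not a separate observation. Of 8 markers of squamous epithelium, 8 were at 1 TPM (transcript abundance scaled for length and depth) or more in all samples of A-C and 7 in all samples of D-F, where *KRT14* was at 0 to 0.25 TPM. Their summed level was 2733 to 3350 TPM in A-C and 1186 to 1487 TPM in D-F. In untreated D, 6 of the 8 were at least 2-fold lower than in A (median −1.45 on the log2 scale). Averaged over the sets, 3 of the 8, *KRT6A*, *KRT14* and *TP63*, rose at 200 ng/ml. *KRT14* had 0 counts in both D samples and 3 and 2 in F. *TP63* stood at 237 and 256 TPM in A and 393 and 452 in C. In D-F it overlapped, at 132 and 109 TPM in D and 126 and 120 in F. The summed leukocyte markers stayed at or under 2.33 TPM and the summed fibroblast markers ranged from 5.49 to 15.3 TPM. The summed endothelial markers ranged from 15.3 to 21.7 TPM in A-C against 0.10 to 0.733 TPM in D-F. These sums rest on few genes. Only 1 of 5 fibroblast markers was at 1 TPM or more in all samples of either set. Of 3 endothelial markers, 1 was so in A-C and 1 was at 0 in all its samples. In TPM *VWF* and *CDH5* were lower in untreated D than in A, and *PECAM1* was higher. The part of these genes in the differences between line sets and doses described here was not tested.

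On GRCh38, as the table lists it, *TAP1* lies at chr6:32845209-32853978 and *TAP2* at chr6:32821833-32838780, both on the minus strand and 6428 bases apart, with *TAPBP* at chr6:33299694-33314387, 445715 bases from *TAP1*. *ERAP1* at chr5:96760810-96808100 and *ERAP2* at chr5:96875939-96919716 point away from each other across 67838 bases. *TAPBPL* lies at chr12:6451690-6466517, *NLRC5* at chr16:56989485-57083531, *PDIA3* at chr15:43746392-43773279 and *CALR* at chr19:12938578-12944489, all on the plus strand. All 8770 bases of *TAP1* are overlapped on the opposite strand by the annotated extent of *PSMB9*, an immunoproteasome subunit at 85.9 to 408 TPM, and 18786 bases of *ERAP1* by *CAST*, the calpastatin gene, at 124 to 155 TPM. The libraries kept strand, but the setting used in counting is not given in the sources used here, so reads of these gene pairs may not be fully separated.

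Promoter sequence was matched in RefSeq (GRCh38.p14) for 7 of the 9 genes, as windows from 250 bases before to 50 bases after each annotated start. The ISRE core was searched on both strands as GAAA, any 2 bases and GAAA again, and overlapping matches were counted separately. It was found in 1 window each of *TAP1*, *TAP2*, *TAPBP*, *ERAP1* and *ERAP2*, and not at *TAPBPL* or *CALR*, while 3.57% of all 35116 promoter windows held it. That share is per window, and *TAP1*, *ERAP1*, *ERAP2* and *TAPBPL* have 2 windows each. The other window of *TAP1*, *ERAP1* and *ERAP2* held no match. The windows around these matches are shown, since interferon is the treatment. Capitals mark the ISRE core, which reads TTTC in place of GAAA where it lies on the opposite strand.
TAP1, chr6:32853778-32853883, minus strand: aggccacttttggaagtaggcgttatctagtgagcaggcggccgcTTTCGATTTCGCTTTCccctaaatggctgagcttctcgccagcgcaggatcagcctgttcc
TAP2, chr6:32838743-32838842, minus strand: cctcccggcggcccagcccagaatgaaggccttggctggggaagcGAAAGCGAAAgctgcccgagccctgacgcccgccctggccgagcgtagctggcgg
TAPBP, chr6:33314049-33314143, minus strand: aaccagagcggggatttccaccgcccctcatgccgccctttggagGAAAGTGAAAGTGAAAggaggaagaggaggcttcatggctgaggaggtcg
ERAP1, chr5:96807916-96807988, minus strand: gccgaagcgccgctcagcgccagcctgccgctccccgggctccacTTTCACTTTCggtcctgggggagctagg
ERAP2, chr5:96876425-96876524, plus strand: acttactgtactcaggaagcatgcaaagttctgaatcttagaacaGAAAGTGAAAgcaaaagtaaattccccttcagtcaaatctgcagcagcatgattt

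The *TAP1* and *TAPBP* windows each held a pair of overlapping matches, which began 134 and 128 bases before the start in *TAP1* and 20 and 14 bases before it in *TAPBP*. The match began 58 bases before the start in *TAP2* and 30 bases before it in the second annotated *ERAP2* window, and at base 3 after the start in *ERAP1*. The gamma-activated site, searched as TTCNNNGAA, was present in 7.66% of all windows and in the second of 2 annotated *TAP1* windows. The *CALR* window held the ER stress response element, searched as CCAAT and CCACG with any 9 bases between them, which was present in 27 of the 35116 windows (0.0769%) and is shown because calreticulin is also a chaperone of the ER stress response. The match lies on the opposite strand, so that the capitals read CGTGG and ATTGG, the reverse complements of both ends.
CALR, chr19:12938359-12938447, plus strand: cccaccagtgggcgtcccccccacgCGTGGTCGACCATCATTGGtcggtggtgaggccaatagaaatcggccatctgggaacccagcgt

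To ask how the pathway changed with IFNα, each treated group was compared with the controls in one edgeR quasi-likelihood fit of all 12 samples, averaged over the line sets. A gene is said to have risen or fallen where its Benjamini-Hochberg adjusted p over the 19944 genes tested was at most 0.05, and it is called changed at least 2-fold where the fold change also reached 2. All 9 genes had enough counts to be tested, and all 9 rose at 200 ng/ml, against 4.98% of all genes tested. *TAP1* and *NLRC5* were called at least 2-fold higher, as 1.58% of all genes were, while the other 7 genes rose 1.19-fold to 1.63-fold. The median log2 fold change was 0.54 over the 9 genes and −0.01 over all genes. At 20 ng/ml, 6 of the 9 rose, against 2.33% of all genes, and the same *TAP1* and *NLRC5* were called higher, against 0.963% of all genes. The median at 20 ng/ml was 0.42. Both doses were compared with the same control samples. In bulk RNA, a change in the number of cells that express a gene and a change in its RNA per cell cannot be told apart.

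**Figure D1:**
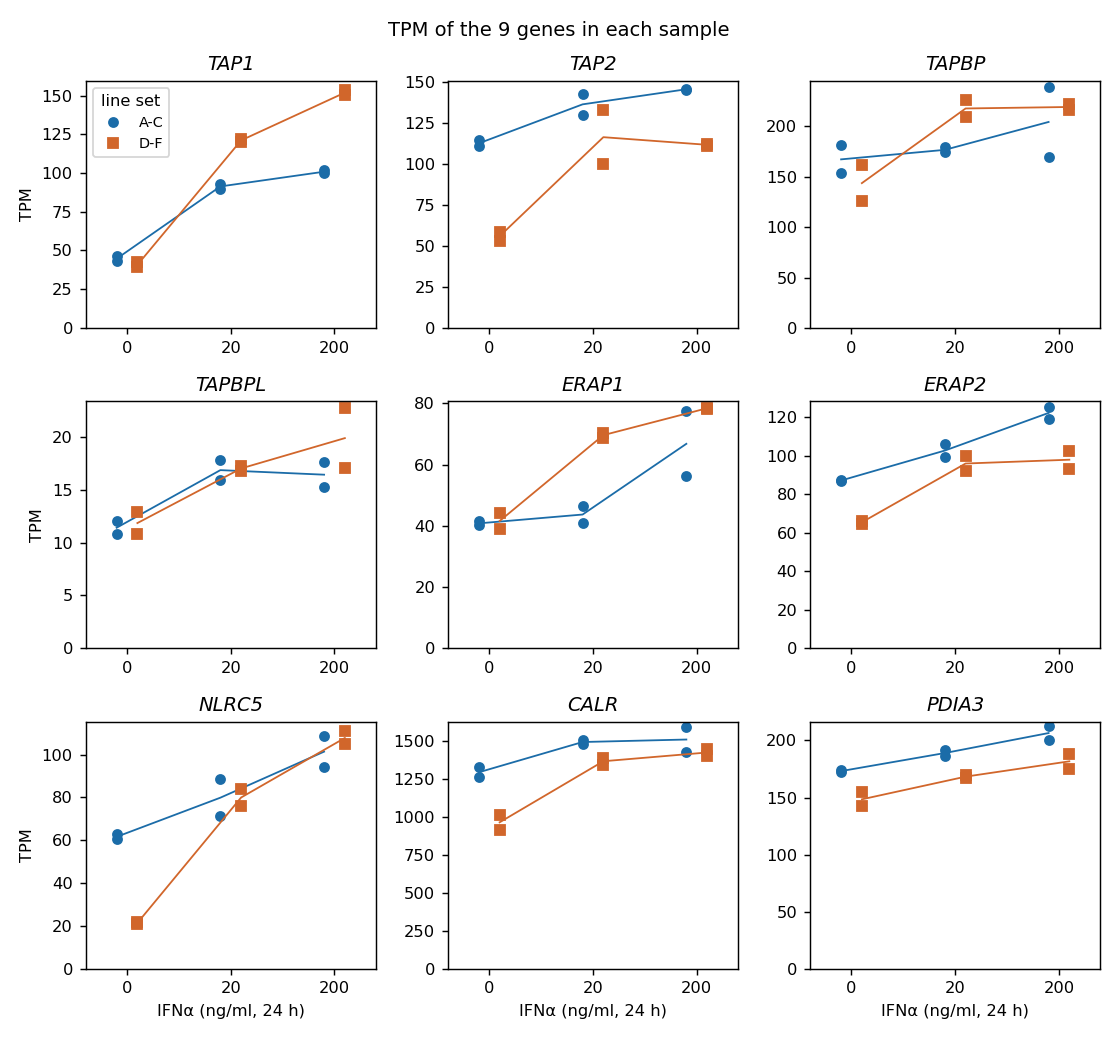
TPM (y axis, from 0) of each of the 9 genes in each sample, by IFNα dose (x axis, ng/ml). Circles are the samples of line set A-C, squares those of D-F, and lines join the means of the 2 replicates. NLRC5 starts at 60.4 and 62.8 TPM in A and at 21.0 and 21.7 TPM in D, and overlaps between C and F.

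*TAP1*, whose product pairs with TAP2 in the transporter, stood at 43.0 and 46.4 TPM in A, 89.7 and 93.0 in B, and 102 and 99.8 in C. In the other line set it stood at 39.1 and 42.3 TPM in D, 122 and 120.1 in E, and 150.1 and 154 in F. No treated sample overlapped a control in either set, and both 200 ng/ml groups lay above their 20 ng/ml groups. Averaged over the sets, the log2 fold change was 1.28 ± 0.06 (SE; adjusted p = 1.5e-06) at 20 ng/ml and 1.51 ± 0.06 (adjusted p = 3.35e-07) at 200 ng/ml, or 2.42-fold and 2.86-fold. The deposited counts behind these values ran from 912 to 2944 per sample.

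*TAP2*, the other subunit of the transporter, stood at 111 and 114 TPM in A, 130.1 and 142 in B, and 145 and 146 in C. In D-F it stood at 53.2 and 58.5 TPM in D, 99.7 and 133 in E, and 112 and 111 in F. Every treated sample exceeded the controls of its own set, but the untreated A samples were about as high as the F samples. The log2 fold change was 0.53 ± 0.06 (adjusted p = 0.000797) at 20 ng/ml and 0.62 ± 0.06 (adjusted p = 0.00018) at 200 ng/ml, smaller than that of *TAP1* at either dose. The estimated gene counts of the E samples were 3407 and 3789, closer than their TPM values, and transcript *TAP2*-202 was given 0.72 TPM in one of them and 61.5 TPM in the other.

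The TPM ratio of *TAP1* to *TAP2* was compared within each sample. It was 0.388 and 0.406 in A, 0.689 and 0.653 in B, and 0.702 and 0.684 in C. It was 0.734 and 0.723 in D, 1.22 and 0.905 in E, and 1.34 and 1.39 in F, so that *TAP1* went from the lower to the higher of the pair in D-F and stayed the lower in A-C. Between control and 200 ng/ml the log2 ratio rose by 0.80 in A-C and by 0.90 in D-F, a mean of 0.85, with no overlap in either set. A two-sided exact permutation test that exchanged doses within each line set gave p = 0.0556, the smallest value its 36 arrangements allow.

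**Figure D2:**
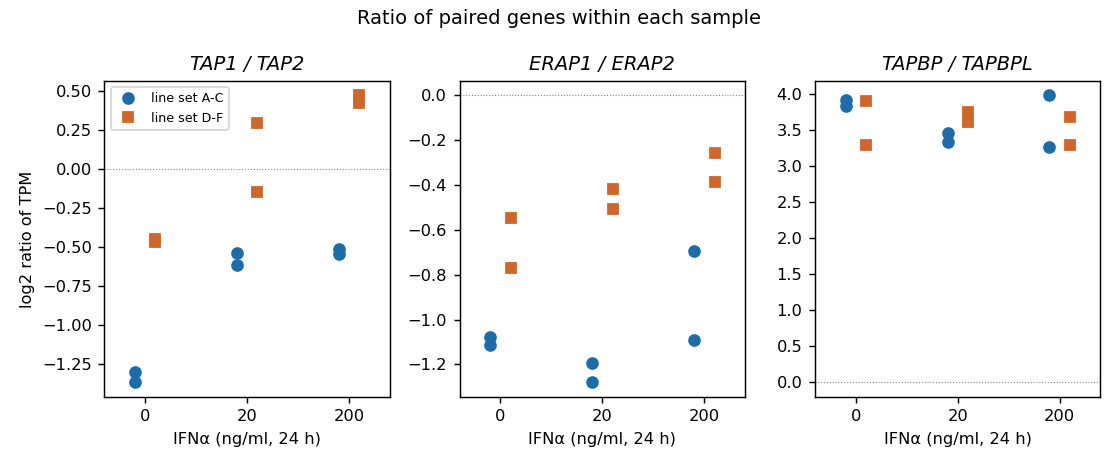
log2 ratio of the TPM of 2 related genes within each sample (y axis) by IFNα dose (x axis, ng/ml), with circles for line set A-C and squares for D-F; the dotted line at 0 marks equal TPM. The TAP1 to TAP2 ratio at 200 ng/ml lies above the controls in both sets, with a mean log2 rise of 0.85.

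Tapasin, encoded by *TAPBP*, bridges the transporter and the class I heavy chain. It stood at 181 and 153 TPM in A, 179 and 174 in B, and 169 and 239 in C. In D-F it stood at 161 and 126 TPM in D, 209 and 226 in E, and 216 and 222 in F. The groups overlapped throughout A-C, where only 1 of the C samples lay above the controls, whereas both treated groups lay above the controls in D-F. The log2 fold change at 200 ng/ml was 0.43 ± 0.11 (adjusted p = 0.0387), the one among the 9 closest to the threshold, and this call was lost in 14 of 20 alternative settings, 10 of which left out 1 sample, where the adjusted p reached at most 0.128. At 20 ng/ml it was 0.31 ± 0.11 (adjusted p = 0.18).

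*TAPBPL*, whose product TAPBPR edits peptides outside the loading complex, was the lowest of the 9 in every group, with 119 to 206 counts per sample. It stood at 12.01 and 10.8 TPM in A, 17.8 and 15.9 in B, and 17.6 and 15.2 in C, and at 10.8 and 12.9 TPM in D, 17.2 and 16.8 in E, and 17.0 and 22.7 in F. The treated samples lay above the controls in both sets, and the treated groups overlapped each other. Its log2 fold change was 0.46 ± 0.12 (adjusted p = 0.0655) at 20 ng/ml and 0.50 ± 0.12 (adjusted p = 0.0255) at 200 ng/ml, and the call at 200 ng/ml was lost in 7 of 20 alternative settings, 5 of them without A replicate 2, C replicate 1, D replicate 1, D replicate 2 or F replicate 2 (adjusted p at most 0.0887). The TPM ratio of *TAPBP* to *TAPBPL* ranged from 9.62 to 15.7 and changed by −0.18 on the log2 scale at 200 ng/ml (two-sided exact permutation p = 0.444).

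*ERAP1* removes residues from the amino end of peptides that are too long for the class I groove. It stood at 40.1 and 41.5 TPM in A, 46.4 and 40.9 in B, and 56.1 and 77.4 in C, and at 44.2 and 38.9 TPM in D, 68.8 and 70.4 in E, and 78.2 and 78.6 in F. In A-C the 20 ng/ml samples overlapped the controls and only the 200 ng/ml samples stood apart, whereas in D-F both treated groups stood above the controls. The log2 fold change at 20 ng/ml was 0.02 ± 0.09 in A-C (adjusted p = 0.995) and 0.63 ± 0.09 in D-F (adjusted p = 0.00444), and the difference between them, 0.62 ± 0.13, had an adjusted p of 0.0931. At 200 ng/ml the sets averaged 0.70 ± 0.06 (adjusted p = 0.000144), the largest rise after *TAP1* and *NLRC5*.

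*ERAP2*, a trimming enzyme with other sequence preferences, stood at 86.8 and 87.6 TPM in A, 106 and 99.4 in B, and 119 and 125 in C. In D-F it stood at 64.6 and 66.3 TPM in D, 92.0 and 100.1 in E, and 93.4 and 103 in F. Treated samples exceeded the controls in both sets, and the E and F groups overlapped. The log2 fold change was 0.42 ± 0.05 (adjusted p = 0.000915) at 20 ng/ml and 0.54 ± 0.05 (adjusted p = 0.000127) at 200 ng/ml. *ERAP2* had the higher TPM of the pair in all 12 samples, with an *ERAP1* to *ERAP2* ratio from 0.412 to 0.837, and the log2 ratio differed by 0.27 between control and 200 ng/ml (two-sided exact permutation p = 0.111).

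Calreticulin, a lectin chaperone and calcium store of the ER, was the most abundant of the 9 by TPM. *CALR* stood at 1263 and 1327 TPM in A, 1508 and 1481 in B, and 1593 and 1428 in C, and at 1013 and 917 TPM in D, 1390.3 and 1345 in E, and 1401 and 1449 in F. Treated samples lay above the controls of their set, and B and C overlapped. Its log2 fold change was 0.33 ± 0.06 (adjusted p = 0.0149) at 20 ng/ml and 0.35 ± 0.06 (adjusted p = 0.00684) at 200 ng/ml.

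*PDIA3* encodes ERp57, the oxidoreductase bound to tapasin. It stood at 172 and 174 TPM in A, 186 and 192 in B, and 200.3 and 213 in C, and at 155 and 142 TPM in D, 167 and 169.9 in E, and 188 and 175 in F. The 3 doses did not overlap in either set, although the steps were small. The log2 fold change was 0.11 ± 0.05 (adjusted p = 0.325) at 20 ng/ml and 0.25 ± 0.05 (adjusted p = 0.0156) at 200 ng/ml, the smallest rise of the 9. Its annotated pseudogenes *PDIA3P1* and *PDIA3P2* had at most 79 and 4 counts per sample against 3872 to 6332 for *PDIA3*, and with their counts added the log2 fold change remained 0.25.

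*NLRC5* stood at 60.4 and 62.8 TPM in A, 88.4 and 71.4 in B, and 109 and 94.0 in C. In D-F it stood at 21.0 and 21.7 TPM in D, 84.0 and 75.9 in E, and 111 and 105 in F. The untreated D samples were the lowest of all 12, and every step up in dose was without overlap in both sets. The log2 fold change was 1.23 ± 0.07 (adjusted p = 6.34e-06) at 20 ng/ml and 1.56 ± 0.07 (adjusted p = 8.71e-07) at 200 ng/ml, or 2.35-fold and 2.94-fold. Counts for *NLRC5* ran from 329 in D to 1341 in F.

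A direct comparison of 200 with 20 ng/ml, which uses no control sample, asked whether the higher dose added to the lower one. In edgeR 0 of the 9 genes passed, against 0.0903% of all genes that rose, all 9 estimates were positive, as 50.3% of all genes were, and 5 had an unadjusted p of at most 0.05 in edgeR, where 4.35% of all genes had both a positive estimate and such a p. With limma none passed, and with DESeq2 *ERAP1* and *NLRC5* did (adjusted p = 0.000701 and 0.0261), as *ERAP1* did in edgeR without C replicate 1 (adjusted p = 0.027). The largest were *ERAP1* at 0.38 ± 0.06 (adjusted p = 0.0819), *NLRC5* at 0.33 ± 0.07 (adjusted p = 0.197) and *TAP1* at 0.24 ± 0.06 (adjusted p = 0.288), on the log2 scale. In TPM, 6 of the 9 genes had both C samples above both B samples, against 18.9% of all genes tested, and 5 had both F samples above both E samples, against 18.2%.

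**Figure D3:**
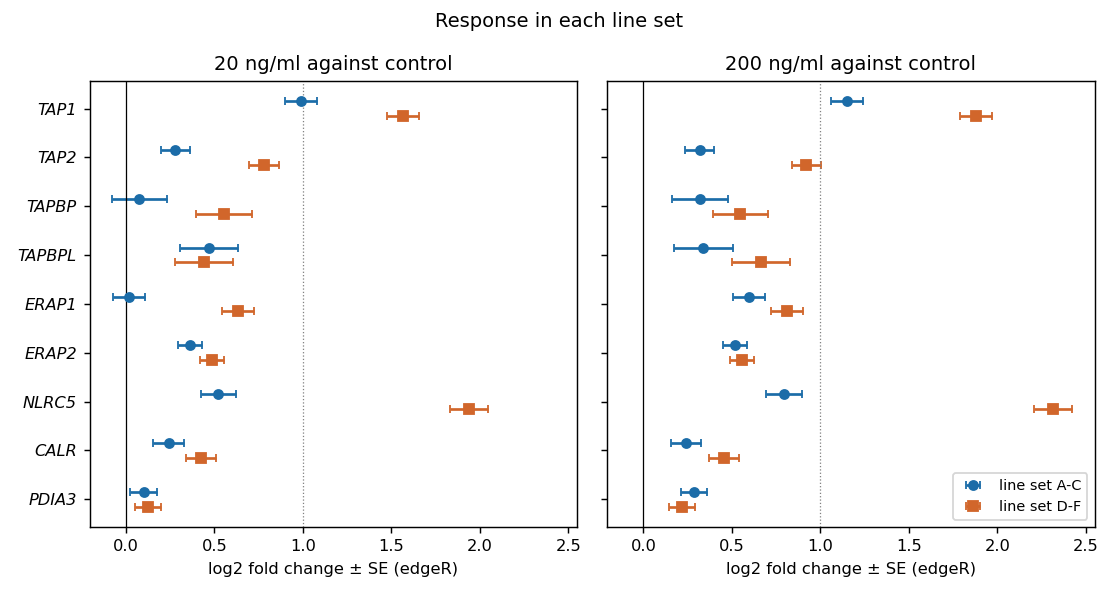
log2 fold change against control (x axis) of the 9 genes at 20 ng/ml (left) and 200 ng/ml (right) IFNα, with bars of 1 SE from the edgeR fit; circles are line set A-C, squares D-F, and the dotted line marks a 2-fold change. NLRC5 shows the widest gap between the sets, 0.80 against 2.32 at 200 ng/ml.

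The response was then compared between the line sets. At 200 ng/ml, 5 of the 9 genes rose in A-C, where 3.58% of all genes did, and 7 rose in D-F, where 3.44% did. *NLRC5* had a log2 fold change of 0.80 ± 0.10 in A-C and 2.32 ± 0.11 in D-F, and the interaction of 1.52 ± 0.15 passed the test (adjusted p = 0.00246). *TAP1* rose by 1.15 ± 0.09 in the first set and by 1.88 ± 0.09 in the second, with an interaction of 0.73 ± 0.12 (adjusted p = 0.026). For *TAP2* the values were 0.32 ± 0.08 (adjusted p = 0.0509) and 0.92 ± 0.08, with an interaction of 0.60 ± 0.12 (adjusted p = 0.0395). These 3 of 9 genes rose more in D-F, as 1.07% of all genes did.

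The *NLRC5* interaction passed in every alternative setting run. That of *TAP1* was lost in 7 of the 19, with an adjusted p up to 0.0986, and that of *TAP2* in 13, up to 0.146, in both cases including the fit with replicate number as a block and 6 or more of the fits that left out 1 sample. For the other 6 genes the difference between sets at 200 ng/ml did not pass, and ranged from −0.07 ± 0.10 for *PDIA3* to 0.32 ± 0.23 for *TAPBPL*. *ERAP2* had 0.52 ± 0.07 in A-C and 0.56 ± 0.07 in D-F, and its interaction was 0.04 ± 0.10.

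At 20 ng/ml, 3 of the 9 genes rose in A-C, against 0.913% of all genes, and 6 in D-F, against 2.15%. *NLRC5* had 0.52 ± 0.10 in A-C and 1.94 ± 0.11 in D-F, and its interaction of 1.42 ± 0.15 was the only one of the 9 to pass (adjusted p = 0.00403), against 0.236% of all genes. *TAP1* had 0.99 ± 0.09 and 1.57 ± 0.09, and its interaction was 0.58 ± 0.12 (adjusted p = 0.104). *TAP2* had 0.28 ± 0.08 and 0.78 ± 0.08, with an interaction of 0.50 ± 0.12 (adjusted p = 0.139).

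The untreated levels of the line sets also differed. In D, 6 of the 9 genes were lower than in A, against 22.4% of all genes tested, and *TAP2* and *NLRC5* were called at least 2-fold lower, against 11.0% of all genes. *NLRC5* differed by −1.47 ± 0.10 on the log2 scale (adjusted p = 4.51e-06), *TAP2* by −1.13 ± 0.08 (adjusted p = 5.69e-06), *CALR* by −0.49 ± 0.09 (adjusted p = 0.00123) and *ERAP2* by −0.46 ± 0.07 (adjusted p = 0.000436). *PDIA3* differed by −0.35 ± 0.07 (adjusted p = 0.00351) and *TAP1* by −0.32 ± 0.09 (adjusted p = 0.0138). The *TAP1* difference was lost in 5 of 20 alternative settings, 2 of them without A replicate 2 or D replicate 1, with an adjusted p up to 0.235. *TAPBP*, *TAPBPL* and *ERAP1* did not pass (adjusted p = 0.0889, 0.426 and 0.824), although *TAPBP* did with C replicate 1 or C replicate 2 left out of the shared spread (adjusted p = 0.0291 and 0.029).

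The treated groups of the sets were compared after the values had been seen. At 200 ng/ml, *NLRC5* in F differed from C by 0.05 ± 0.10 on the log2 scale (adjusted p = 0.721), where the control difference had been −1.47. *TAP1* was higher in F than in C by 0.40 ± 0.09 (adjusted p = 0.00393), as 25.7% of all genes were, although it had been lower in the controls. *TAP2*, *ERAP2*, *CALR* and *PDIA3* were still lower in F, by −0.53, −0.42, −0.27 and −0.42, against 22.6% of all genes. At 20 ng/ml, *ERAP1* was higher in E than in B by 0.59 ± 0.09 (adjusted p = 0.000589) and *TAP1* by 0.25 ± 0.09 (adjusted p = 0.04), against 24.3% of all genes. The 4 genes lower in F were also lower in E, by −0.63 for *TAP2*, −0.33 for *ERAP2*, −0.30 for *CALR* and −0.33 for *PDIA3*, against 21.2% of all genes, and *NLRC5* differed by −0.06 ± 0.10 (adjusted p = 0.672). These differences use the same samples as the interactions and are another reading of them.

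**Figure D4:**
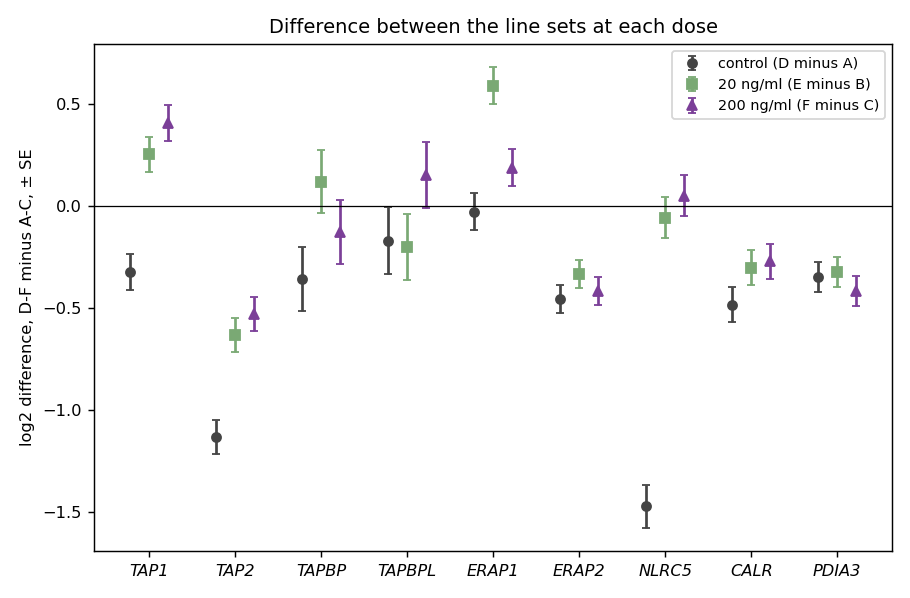
log2 difference between the line sets, D-F minus A-C (y axis), with bars of 1 SE from the edgeR fit, for each of the 9 genes (x axis) in controls (circles), at 20 ng/ml (squares) and at 200 ng/ml (triangles). NLRC5 moves from −1.47 in controls to 0.05 at 200 ng/ml, while PDIA3 stays between −0.33 and −0.42.

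Transcripts were examined to see which forms carried the change. The table lists 87 transcripts of the 9 genes among 201521, of which 63 passed the filter on low counts. At 200 ng/ml, 53 of the 63 had a positive log2 fold change, but only 1 rose and was called at least 2-fold higher, against 0.372% and 0.343% of all transcripts tested. It was *TAP1*-201, the protein-coding transcript, which held 81.1% to 91.1% of the *TAP1* TPM in the group means and changed by 1.50 ± 0.10 (adjusted p = 0.00104). The spread between replicates was wider for transcripts than for genes, with a common biological coefficient of variation of 0.837 against 0.196. *NLRC5* was divided over 29 transcripts, of which 9 were annotated as protein coding. Of the 29, 12 held at least 5% of its TPM in some group, and 17 of the 19 tested had positive log2 fold changes. None of the 19 rose at the adjusted threshold, so which forms carried the *NLRC5* rise cannot be told. The protein-coding *NLRC5*-203 ranged from 0 to 9.54 TPM in A-C and was at 0 in all samples of D-F. The processed transcripts *NLRC5*-207 and *NLRC5*-224 held 18.1% and 14.4% in A. The protein-coding *TAPBPL*-201 stood at 7.29 and 5.77 TPM in A and 2.18 and 6.0 in C. It stood at 2.48 and 2.58 TPM in D and 9.36 and 3.9 in F. Over both sets edgeR estimated 0.26 ± 0.47 (adjusted p = 0.988). With that spread, which forms carried the *TAPBPL* rise cannot be told.

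Other genes of the pathway, grouped in lists by function, were read beside the 9. Of all genes tested at 200 ng/ml, 4.98% rose and 1.58% were called at least 2-fold higher, which is the background for the list counts at that dose. Of the 7 genes of the class I heavy chain and *B2M* list, 6 were tested, and 4 rose at 200 ng/ml with a list median of 1.07 on the log2 scale. *B2M* overlapped in A-C, at 224 and 392 TPM in A and 487 and 240 in C. In D-F it stood at 318 and 208 TPM in D and 600 and 773 in F. Replicates of *HLA-C* were also far apart in F, at 281 and 721 TPM. *HLA-B*, *HLA-E* and *HLA-F* were called at least 2-fold higher, at 1.48 ± 0.07, 1.06 ± 0.07 and 1.43 ± 0.19. Reads of the heavy chains may be shared among these near-identical and highly polymorphic genes, so their values are less certain than those of the 9. The interaction for *HLA-B* at 200 ng/ml was 1.75 ± 0.13 (adjusted p = 0.00111), from 0.61 ± 0.09 in A-C against 2.36 ± 0.10 in D-F.

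Of the 5 genes of the immunoproteasome and its activator, which cut the peptides that TAP carries, 4 rose with a median of 0.56, and only *PSMB9* was called at least 2-fold higher, at 1.34 ± 0.13. Of 8 other peptidases of peptide supply, 2 rose, and the median was −0.06. *LAP3*, a cytosolic leucine aminopeptidase, was called higher at 2.30 ± 0.12. Among all 48 listed genes of the pathway, some of which are not described here, 8 were called higher.

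Of the 8 genes for the partners of NLRC5 at class I promoters and its class II relative *CIITA*, 1 rose, *RFX5*, at 0.35 ± 0.07 (adjusted p = 0.0153), and the median was −0.07. Of 12 other ER chaperones and folding enzymes, 4 rose and 1 fell, none by 2-fold, with a median of 0.07. The other ABC transporters related to TAP, *ABCB8*, *ABCB9* and *ABCB10*, had a median of −0.28, and edgeR gave 2 of the 3 an unadjusted p under 0.05 but no adjusted p under it. *B2M*, *HLA-C*, *RFX5*, *ABCB8*, *ABCB9* and *ABCB10* are named although they fall outside the rule for named genes, and were chosen after their values were seen.

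**Figure D5:**
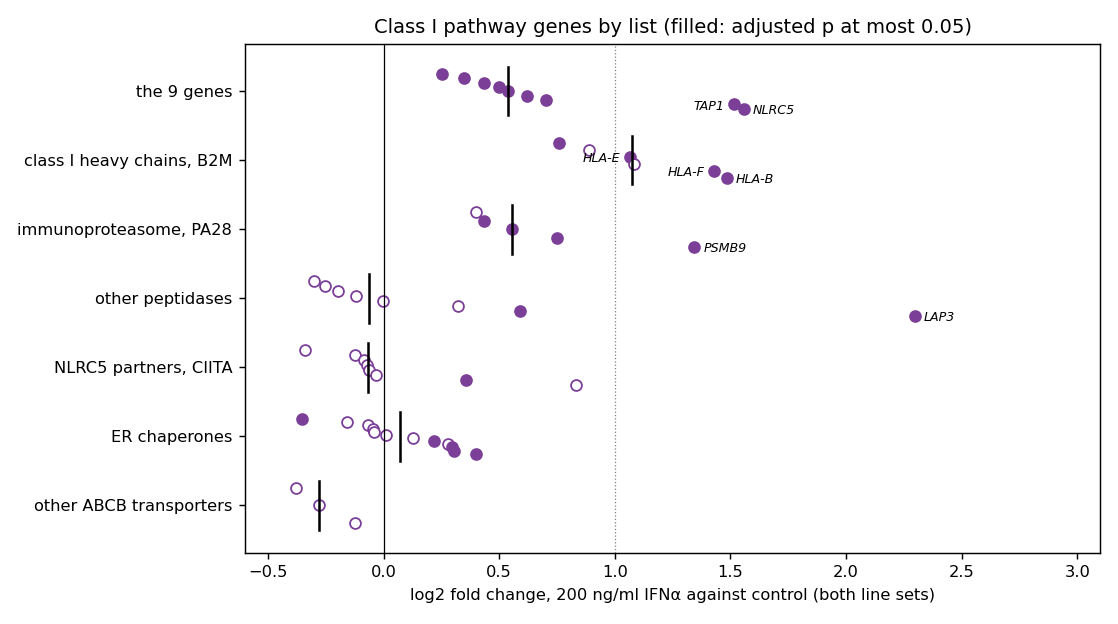
log2 fold change at 200 ng/ml IFNα against control over both line sets (x axis) for each tested gene of each list (y axis). Filled circles passed an adjusted p of 0.05, black bars are list medians, the dotted line marks a 2-fold change, and genes called at least 2-fold higher are named; the medians run from −0.28 for the other ABCB transporters to 1.07 for the class I heavy chain list.

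The genes most like each of the 9 over the 12 samples were named by Pearson correlation of log2 CPM (counts scaled to library size) among the 13033 genes averaging 50 counts or more. *TAP1* was closest to *IFIH1* (r = 0.993), *PARP14* (0.988) and *IFI35* (0.987), and *ERAP2* to *NT5E* (0.993), *IFI16* (0.988) and *GBP1* (0.987). *NLRC5* was closest to *SLC15A3*, *C5orf56* and *LAMP3*, at 0.985 to 0.986, and *TAP2* to *HK2* (0.992), *EHD4* (0.991) and *PML* (0.986). The lowest of the closest correlations belonged to *TAPBPL*, at 0.940 with *USP1*, and to *TAPBP*, at 0.948 with *TGFA*. *ERAP1* was closest to *PTPRR* (0.956), *CALR* to *EVC* (0.981) and *PDIA3* to *ORC4* (0.974). These 12 points share line set, dose and library, and the correlations describe likeness of profile over them only.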

How the data were processed

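RNA was sequenced by the authors from rRNA-depleted, strand-specific libraries of 12 samples. Per the labels, reads were handled with Trimmomatic 0.36, HISAT2 2.1.0 and StringTie 1.3.3b on GRCh38.p10, and the program that made the counts is not given in the sources used here. The authors deposited an estimated count per gene and transcript, as whole numbers without any scaling. TPM and FPKM, in which the authors corrected for transcript length and library size, were deposited beside the counts. The FPKM values were used only in an alternative run of the gene-pair ratios. The estimated counts were tested with edgeR 4.0.16 in R 4.3.3, with TMM normalisation, filterByExpr, 6 groups of line set and dose, and Benjamini-Hochberg adjustment over all genes or transcripts kept (19944 and 75876). SEs were derived from the log2 fold change and its F statistic. TPM values describe levels and ratios, and exact permutation tests exchanged doses within line sets. Alternatives were other scalings, DESeq2 1.42.0, limma 3.58.1 on log2(TPM + 0.1), no filter, a replicate block, the compared groups only, and each sample left out. Named genes were the 9 genes, listed genes called at 200 ng/ml or set directly against one of the 9, the 3 most correlated genes each, and transcripts with at least 5% of their gene's TPM. The 9 genes and the lists were chosen with earlier results of these data known. The result of 1 list is not reported here. The code was tested on simulated data. Depth was 10517448 to 16056734 counts per sample.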

Additional observations from a re-analysis of the deposited data

Results flagged for a closer look

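The responses of 3 genes differed between the line sets by a test of the difference itself, the edgeR interaction. For *NLRC5* the response of D-F exceeded that of A-C by 1.42 on the log2 scale at 20 ng/ml and by 1.52 at 200 ng/ml. At 200 ng/ml the excess was 0.73 for *TAP1* and 0.60 for *TAP2*, and these calls were lost in 7 and 13 of the 19 alternative settings, while those of *NLRC5* were lost in none. The untreated level of all 3 genes was lower in D than in A, although for *TAP1* that difference did not pass with library size alone or with limma. All 6 interferon-stimulated genes of the treatment check were also lower in untreated D, with a median difference of −1.78. Their median excess of the D-F response was 1.73 at 200 ng/ml. Each excess is computed from the same control samples, so a lower D than A enters it directly and is not a separate observation. Line set and any handling that differed between the sets cannot be told apart, since neither line nor culture is labelled.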

How the results depend on the processing

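The counts of genes called at least 2-fold changed at 200 ng/ml (2), at 20 ng/ml (2), between 200 and 20 ng/ml (0) and in untreated D against A (2) were the same whichever of the 12 samples was left out. With no fold minimum they were 9, 6, 0 and 6. The other listed genes changed at 200 ng/ml, counted in either direction, went from 8 to 21 of 48. Of all 19944 genes tested at that dose, 993 rose and 912 fell with no fold minimum. Over 13033 genes, samples with the same replicate number did not deviate together (r from −0.051 to 0.058 over 6 letter pairs). Such correlations cannot tell whether the numbers mark shared cultures or batches, which the labels do not state. With the replicate block, the genes whose response at 200 ng/ml differed between sets went from 3 to 1, *NLRC5* alone, while it left 2, 2, 0 and 2 in the counts named first. That count ranged from 1 to 3 with 1 sample left out, and was 1 without A replicate 2, B replicate 2, C replicate 2, D replicate 1, F replicate 1 or F replicate 2. At 20 ng/ml the genes whose response differed between sets went from 1 in edgeR to 4 with DESeq2. Of all 19944 genes, that interaction passed in edgeR for 47 higher and 27 lower in D-F. With DESeq2 it passed for 165 higher and 154 lower, and 3094 genes were given no adjusted p. Of the transcripts of the 9 genes, 1 was called at least 2-fold changed at 200 ng/ml in edgeR and 8 with DESeq2. Of all 75876 transcripts tested, edgeR called 260 higher and 115 lower, and DESeq2 called 1146 higher and 1057 lower. The causes of these shifts were not tested.

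With 1 sample left out, the log2 ratio change at 200 ng/ml ranged from 0.84 to 0.87 for *TAP1* to *TAP2*, from 0.17 to 0.37 for *ERAP1* to *ERAP2* and from −0.36 to −0.0067 for *TAPBP* to *TAPBPL*. Of the rises at 200 ng/ml, *TAPBP* kept its call without C replicate 1 or D replicate 1 and lost it without any other sample, and *PDIA3* was lost in 2 of 21 settings (without D replicate 2 or F replicate 1, adjusted p at most 0.064). Of those at 20 ng/ml, *ERAP1* was lost in 7 (with limma, or without either A or B sample, D replicate 2 or E replicate 2, at most 0.0933) and *CALR* in 5 (without A replicate 1, either B sample, D replicate 2 or E replicate 1, at most 0.0624). The *TAP2* difference between sets at 200 ng/ml kept its call in only 2 of the 12 fits that left out 1 sample, those without C replicate 1 or D replicate 2. The limma fit moved the median untreated difference of all genes from 0.01 to 0.14. The lower *PDIA3* in D then did not pass (limma adjusted p = 0.0538), although its estimate stayed negative.

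Signs turned only for small differences that passed in no setting run. With 1 sample left out, the 200 against 20 ng/ml difference ranged from −0.0130 to 0.233 for *TAPBP*, −0.0199 to 0.106 for *TAPBPL* and −0.0354 to 0.0630 for *CALR*. The difference between sets ranged from −0.00368 to 0.0951 for *ERAP2* at 200 ng/ml, and at 20 ng/ml from −0.153 to 0.0875 for *TAPBPL* and −0.0307 to 0.0824 for *PDIA3*. That of *ERAP1* in untreated D against A ranged from −0.0791 to 0.0167. With library size alone, *CALR* went to −0.0110 (200 against 20 ng/ml) and untreated *ERAP1* to 0.0674. With upper quartile scaling, *PDIA3* went to −0.0139 between sets at 20 ng/ml. With limma, *PDIA3* went to 0.0388 between sets at 200 ng/ml, untreated *TAPBPL* to 0.0506 and untreated *ERAP1* to 0.0240, and with the replicate block untreated *ERAP1* went to 0.000113.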

Other observations

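*CIITA*, the class II relative of *NLRC5*, stood apart between the line sets. It was at 14.6 and 17.1 TPM in A, 20.6 and 20.3 in B, and 26.3 and 23.4 in C, and at 0.28 and 0.44 TPM in D, 0.82 and 2.55 in E, and 1.05 and 1.33 in F. The counts did not follow the steps in TPM within A-C, where CPM overlapped at 45.9 and 55.9 in A and 33.8 and 65.7 in C. In D-F the values rest on 6 to 40 counts per sample. The untreated difference was −6.12 ± 0.51 on the log2 scale (edgeR), and the change at 200 ng/ml over both sets, 0.83 ± 0.34, did not pass (adjusted p = 0.174). *LAP3* stood at 48.2 and 49.1 TPM in A and 187 and 196 in C, and at 32.3 and 31.4 TPM in D and 164 and 227 in F, with no overlap between control and 200 ng/ml in either set. Its interaction at 200 ng/ml was 0.52 ± 0.23 (adjusted p = 0.275). *CIITA* was named after its values were seen.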
